A study of Cynara cardunculus with 36 samples.

Results

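The gene models described here are those of globe artichoke hearts whose RNA level differed most between replicate libraries of one cultivar before storage, while the mean level stayed near its starting value in storage. Levels are log2 CPM, reads of a gene model scaled to a common library size, with edgeR's TMM factors. For each of 4 cultivars, the standard deviation (SD) was taken over its 3 day 0 libraries, and gene models were ranked by the mean of the 4 SDs. The ranking was limited to gene models with a mean day 0 level of at least 3 on the log2 scale and a mean that changed by under 0.7 log2 units at day 7 and at day 14. The 150 highest in rank were taken. Of 28632 gene models in the files, 21989 passed the read filter and 12308 of these reached the level of 3.

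The limit on the mean can be read in 2 ways, and both sets are described. In the every-cultivar set, the change had to stay under 0.7 in each cultivar, which left 956 gene models to rank. For the average set, the change averaged over the 4 cultivars had to stay under 0.7, which left 5593. The sets share 1 gene model, V2_14g007960.1.01, which ranked 1 in the every-cultivar set and 26 in the average set.

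RNA was sequenced from hearts at days 0, 7 and 14 of cold storage. The 4 cultivars were Green Queen (GQ), Green Globe Improved (GGI), Opal (OP) and Imperial Star (IS). Each of these 12 groups had 3 libraries, 36 in all. Field-grown plants of every group had received GA to bring flowering forward, and mature heads of all groups were kept cold for a short acclimation before day 0. The labels call the replicates biological but do not say whether a replicate was 1 head or several pooled heads, so "between heads" means here between replicate libraries, and p-values measure only the spread between these libraries.

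The artichoke heart is the fleshy receptacle and inner bracts of an immature flower head. A harvested head stays alive: it respires, loses water and, where tissue is cut or ages, phenolic compounds are oxidised to brown products. Heads of one cultivar picked on one day can differ in developmental age, position on the plant, wounding and light, so heads can differ before storage begins. In bulk tissue, fewer cells of a type and less RNA per cell cannot be told apart. None of the 28632 gene model IDs could be paired with a gene name, so no function is given for any member and the tissue could not be checked by marker genes.

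The day 0 libraries held between 33.3 and 45.5 M reads in gene models, with M as in CPM, and between 9.65% and 13.7% of their reads lay outside gene models. At day 7, that share was 71.0% in OP replicate 1, 33.5% in GGI replicate 2, 31.6% in GQ replicate 2 and 30.1% in GQ replicate 3, against at most 16.0% in the other libraries. At day 14, 2 libraries went against their cultivar labels. Of 329 gene models that separated the day 0 GGI from the day 0 GQ libraries by at least 4 log2 units, 61 were nearer to GGI in the library labelled GGI replicate 1, against 172 and 187 in the other two GGI libraries. In the library labelled GQ replicate 1, 171 were nearer to GGI, against 56 and 62 in the other two GQ libraries. The spread and co-movement of each set at days 7 and 14 are given with and without these 6 libraries. Without them, GQ keeps only replicate 1 at day 7, so the day 7 spread and co-movement then leave GQ out. OP and GGI at day 7, and GGI and GQ at day 14, then keep 2 libraries each, whose deviations mirror each other. Other values of days 7 and 14, among them spreads by cultivar and values of named members, are from all libraries, and the part of the 6 in them was not tested unless stated. Every day 0 library entered the choice of members.

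The every-cultivar set did not hold the most variable gene models of the hearts. The median of its members' mean day 0 SD was 0.24 log2 units, against 0.20 over all 12308 gene models at this level. A mean SD of 0.46 marked off the top 10% of these, and 1 of 150 members lay above it. For the average set, the median was 0.56 and 146 of 150 members lay above that mark. Over all gene models at this level, 1231 lay above the mark and the highest mean SD was 2.74. The limit on the mean thus left most of these out of both sets. The average set comes nearer to the label of highest variation between heads, among gene models whose mean over cultivars moved little. The every-cultivar set is better called the most variable of the gene models that storage moved little in any cultivar. These SDs chose the members and carry no test.

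At the edge of the every-cultivar set, the last 2 members had mean SDs of 0.2151 and 0.2144, and the next gene models outside had 0.2144 and 0.2143. At the edge of the average set, the values were 0.4619 and 0.4613 inside and 0.4613 and 0.4602 outside. Neither edge separates the members from their neighbours. The highest mean SD was 0.76 in the every-cultivar set and 1.57 in the average set.

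In linear terms, the day 0 libraries of one cultivar often differed several-fold for members of the average set. The highest library was more than 2 times the lowest in at least 1 cultivar for all but 1 of 150 members, and in all 4 cultivars for 12. A ratio above 4 was reached by 59. Over all 12308 gene models at this level, 183 had a ratio above 2 in all 4 cultivars and 598 had one above 4 in any. These ratios restate the day 0 spread that chose the members. The median of the members' largest ratio was 3.49 and the highest ratio was 36.5. Of the every-cultivar set, 20 members had a ratio above 2 in any cultivar, which is 13.3%, against 21.7% of all gene models at this level. The median of its largest ratio was 1.68.

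The read counts behind the members were high. Each member had a mean of at least 379 reads per day 0 library in the every-cultivar set and at least 392 in the average set. At a member's mean day 0 read count, the SD that read counting alone would give was at most 0.07 log2 units in either set. It is larger in a library with fewer reads than that mean. Mean day 0 levels ran from 8.40 to 810 CPM in the every-cultivar set, with a median of 39.7, and from 8.67 to 826 CPM in the average set, with a median of 26.7. The members are thus spread over moderate and high levels.

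The spread was not equal in the cultivars. In the average set, the median member SD at day 0 was 0.73 in IS and 0.66 in OP, against 0.49 in GQ and 0.48 in GGI. IS and OP also led among all gene models at this level, with 0.23 in IS, 0.22 in OP, 0.17 in GGI and 0.16 in GQ.

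**Figure D1:**
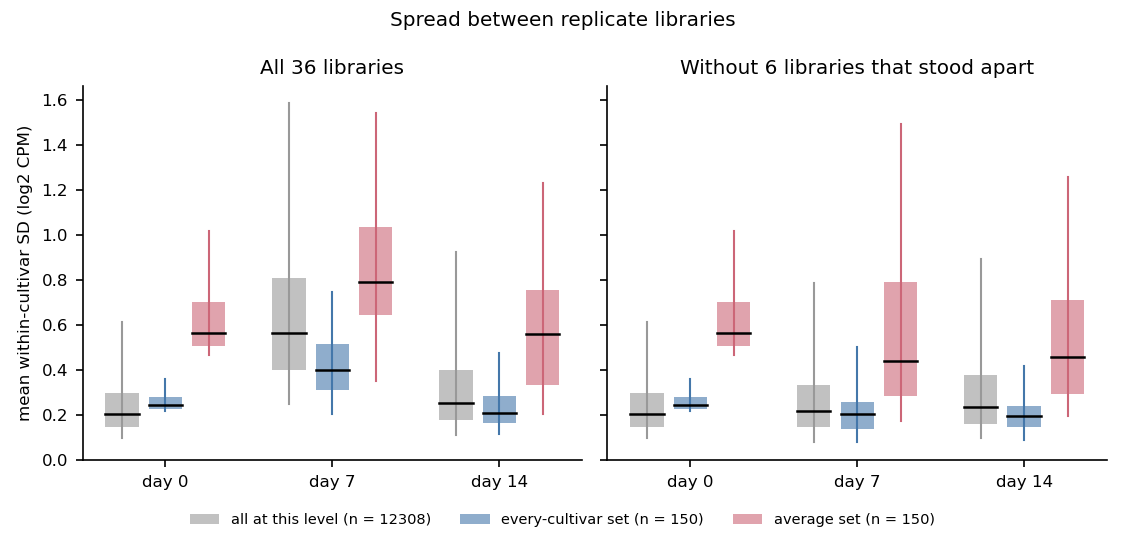
The mean of the within-cultivar SDs in log2 CPM is plotted by day for all 12308 gene models at the level of the members and for the 150 members of each set, with all 36 libraries and without the 6 libraries that stood apart. Without the 6, the day 7 values leave out GQ. Bars span the middle 50% of gene models, black lines are medians and thin lines run from the 5th to the 95th percentile; the average set lies above the rest at day 0, where it was chosen, and its median stays above theirs at days 7 and 14.

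The spread of the average set was found again in libraries that the ranking by SD did not use. At day 7, the median mean SD of its members was 0.79 log2 units, against 0.57 over all gene models at this level and 0.47 over the 5593 that passed the same limits. At day 14 it was 0.56, against 0.25 and 0.20. Without the 6 libraries, the members' medians were 0.44 and 0.46, against 0.22 and 0.24 over all gene models at this level.

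Counted member by member, 122 of 150 (81.3%) exceeded the median of all gene models at this level at day 7, and 136 (90.7%) did so at day 14, against a background of 50%. The top 10% of SDs held 17 members (11.3%) at day 7 and 48 (32%) at day 14, against a background of 10%. Without the 6 libraries these counts were 55 (36.7%) and 47 (31.3%). The day 7 share in the top 10% therefore moved by more than 3 times with the libraries that stood apart, and the day 14 share stayed near 32%.

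The every-cultivar set showed no such carry-over against all gene models. The median mean SD of its members was 0.40 at day 7 and 0.21 at day 14, below the 0.57 and 0.25 of all gene models at this level. Of its members, 30 (20%) exceeded the overall median at day 7 and 46 (30.7%) at day 14. Without the 6 libraries, 66 (44%) did so at day 7 and 40 (26.7%) at day 14, and the members' median was 0.205 against 0.216 at day 7 and 0.198 against 0.237 at day 14. The limit on change in each cultivar also keeps out gene models whose later means were moved by 1 outlying library, so these later spreads are not free of the rule. Against the 956 gene models that passed the same limit, whose medians were 0.34 and 0.17, the members lay higher at both days.

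The cultivar with the widest spread changed with the day. The median member SD of the average set at day 7 was 0.83 in GQ, 0.82 in OP, 0.71 in GGI and 0.55 in IS. At day 14 it was 0.71 in GGI, 0.57 in GQ, 0.41 in OP and 0.29 in IS. OP and GQ held 3 of the 4 day 7 libraries with many reads outside gene models, and GGI and GQ held the day 14 libraries that went against their labels.

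To ask which replicates moved together, each value was taken as a deviation from the mean of its cultivar on that day, which leaves 12 deviations a day. Members were then grouped by a tree on the correlation of their 12 day 0 deviations, cut at a height of 0.5. Of the average set, 118 of 150 members fell into 5 groups of at least 10, and 32 into 10 smaller groups. Of the every-cultivar set, 116 fell into 4 such groups and 34 into 12 smaller ones. The groups were made from the day 0 values, so their day 0 patterns are descriptions, and the deviations of 3 libraries add up to 0 within each cultivar.

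Group 1 of the average set, with 39 members, was high in OP replicate 3 and IS replicate 1. Its mean deviation was 0.87 log2 units in OP replicate 3 and 1.06 in IS replicate 1, and in both libraries 39 of 39 members lay above their cultivar mean. It was low in OP replicate 2, at -0.79 with 0 of 39 above, and in IS replicate 2, at -0.79 with 1 of 39 above. In GGI and GQ the deviations were smaller, the lowest being -0.42 in GGI replicate 3 and the highest 0.36 in GQ replicate 3.

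Group 2, with 34 members, ran the other way in part of the libraries. It was low in OP replicate 3, at -0.86 with 0 of 34 members above the cultivar mean, and in GQ replicate 3, at -0.73 with 0 of 34. It was high in OP replicate 2, at 0.51, and in GQ replicate 2, at 0.63, each with 34 of 34 members above. Over the 12 day 0 libraries, the mean deviations of groups 1 and 2 had a correlation of -0.813, given as a description because the tree placed opposed members apart.

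Group 3, with 18 members, was low in IS replicate 1, at -0.93, and in GQ replicate 2, at -0.67, with 0 of 18 members above the mean in either. It was high in OP replicate 3 at 0.59, in GGI replicate 2 at 0.58 and in GQ replicate 3 at 0.48, with 18 of 18 above in each. Group 4, with 15 members, was high in OP replicate 1 at 0.81 and in IS replicate 2 at 0.68, with 15 of 15 above. It was low in IS replicate 1, at -0.82, in OP replicate 2, at -0.46, and in GGI replicate 3, at -0.43, with 0 of 15 above. Group 5, with 12 members, was high in IS replicate 2 at 1.19 and in GGI replicate 3 at 0.74, with 12 of 12 above, and low in IS replicate 1 at -1.12, with 0 of 12.

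IS replicate 1 had every member on one side of the cultivar mean in 4 of the 5 groups, above it in group 1 and below it in groups 3, 4 and 5. This library was farthest from the other two of its cultivar for 100 of 150 members (66.7%), against 52.9% of all gene models at this level. OP replicate 3 was farthest for 79 members (52.7%), against 37.4%. In GGI and in GQ, replicate 3 was the farthest for 69 members each (46%), near the 45.0% and 45.6% of all gene models at this level. IS replicate 3 was the farthest for 8 members (5.33%), against 13.9%.

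**Figure D2:**
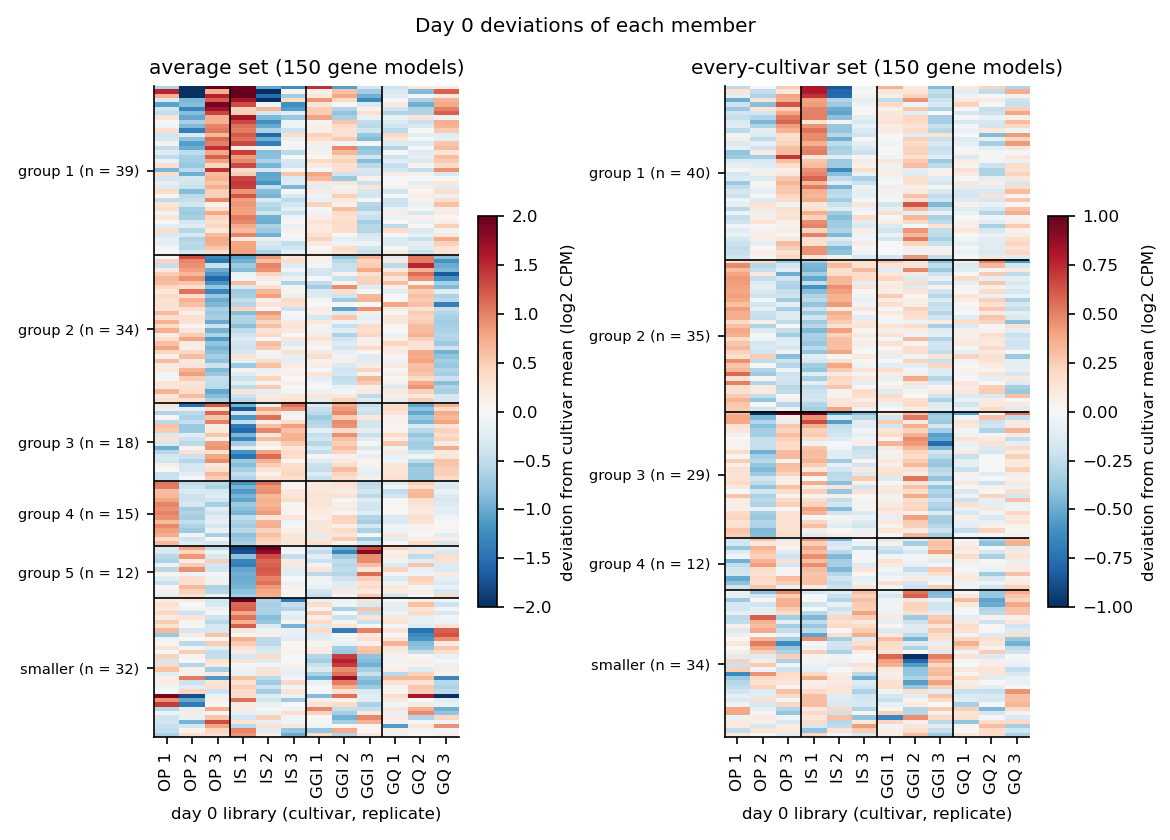
Each row is a member and each column a day 0 library, with colour giving the deviation from the cultivar mean in log2 CPM (red above, blue below) on a scale that differs between the panels. Members are ordered by group; group 1 of the average set is red in OP replicate 3 and IS replicate 1, and group 5 is red in IS replicate 2 and GGI replicate 3.

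Across the 150 members of the average set, the day 0 libraries most alike in their deviations were OP replicate 3 and GQ replicate 3, with a correlation of 0.694 across members. OP replicate 2 and GGI replicate 3 followed at 0.527, IS replicate 2 and GGI replicate 3 at 0.504, and OP replicate 2 and IS replicate 2 at 0.481. The most opposed pair was OP replicate 3 and GQ replicate 2, at -0.574. Over all 12308 gene models at this level, part of these values were close to the members': 0.71 for OP replicate 3 with GQ replicate 3, 0.529 for OP replicate 2 with GGI replicate 3 and -0.597 for the most opposed pair. The likeness in those pairs is thus not particular to the members. The other pairs were less alike over all gene models, with 0.323 for IS replicate 2 with GGI replicate 3 and 0.274 for OP replicate 2 with IS replicate 2. In the every-cultivar set, OP replicate 2 with GGI replicate 3 and OP replicate 3 with IS replicate 1 each had 0.572, and OP replicate 3 with GQ replicate 3 had 0.544. Members of one group are not independent of each other, so these values describe the libraries and carry no p-value.

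The libraries that moved together did not share a replicate number as a rule. The 18 pairs with the same number had, across members of the average set, a mean correlation of 0.0129 at day 0, and the 36 pairs with other numbers had -0.00464. A library was most like the library of its own number in 10 of 36 comparisons, against 12 of 36 over all gene models at this level. The every-cultivar set gave 6 of 36.

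The same question was put to each gene model with edgeR's quasi-likelihood test of replicate number, with cultivar as a covariate. At day 0, 0 of 150 members of either set passed an adjusted p of 0.05, against 0% of the 21900 gene models tested. At an unadjusted p under 0.05, the test counted 560 of all 21900 gene models. Of the 150 members, it counted 2 in the every-cultivar set and 15 in the average set. The day 0 spread that ranked the members enters this test, so nothing is read from the day 0 counts of members. DESeq2 called 0 members and 6 gene models in all. At day 7 edgeR called 0 members, against 0.00457% of gene models tested, with 0 and 6 members at an unadjusted p under 0.05, while DESeq2 called 0 and 1. At day 14 edgeR called 0 members, against 0%, with 0 and 1 members at an unadjusted p under 0.05, and DESeq2 called 0. For the day 7 and day 14 counts at an unadjusted p, no count over all gene models is given, so nothing is read from them.

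The deviations of days 7 and 14 took no part in forming the groups, and were used to ask whether members that moved together at day 0 did so again. Within the 5 groups of the average set, the mean correlation between members at day 0 lay between 0.708 and 0.876. At day 7 it was 0.166 in group 1, 0.175 in group 2 and 0.163 in group 5, against 0.0113 over all pairs of the 150 members. Groups 3 and 4 kept more of it, with 0.569 and 0.731.

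At day 14, the mean correlation was 0.413 in group 3 and 0.676 in group 4. In groups 1 and 2 it was 0.117 and 0.0773, against 0.0246 over all pairs of members. Without the 6 libraries, group 1 had 0.153 at day 7 and 0.176 at day 14, and group 2 had 0.152 and 0.0634, against 0.000692 and 0.0318 over all pairs. Group 3 then had 0.668 at day 7 and 0.508 at day 14, and group 4 had 0.664 and 0.688. All day 7 values without the 6 leave out GQ. Group 5 had 0.333 at day 14 with all libraries and 0.0667 without the 6, so that its day 14 value rests on them. Members of groups 3 and 4 therefore varied together on all 3 days, and those of the larger groups 1 and 2 much less after the day that formed them.

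**Figure D3:**
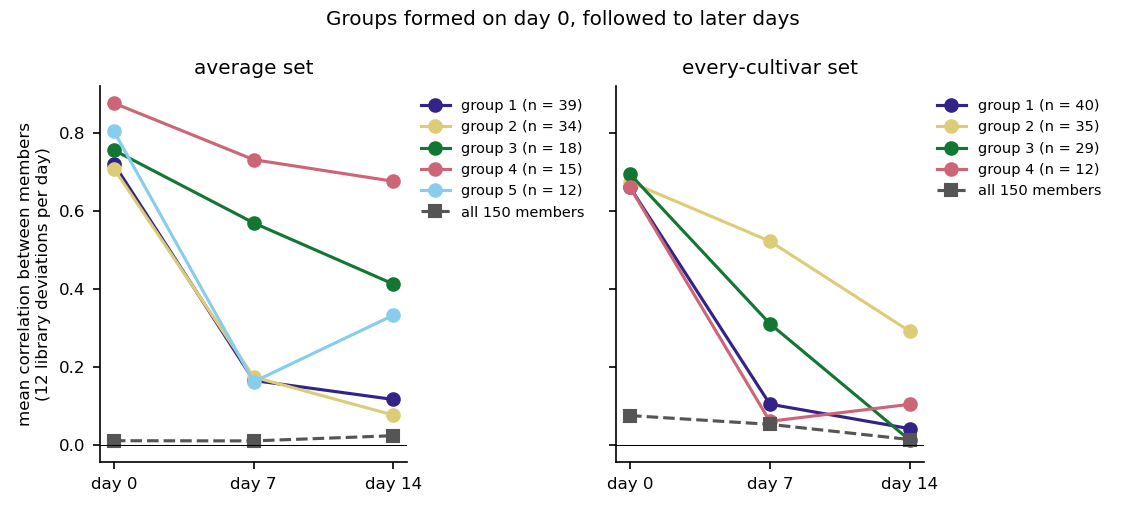
The mean correlation between members of a group over the 12 library deviations of each day is plotted for the groups formed on day 0, with all pairs of the 150 members as a dashed line. In the average set, groups 3 and 4 stay at 0.413 and 0.676 at day 14, while groups 1 and 2 fall to 0.117 and 0.0773.

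The libraries that carried group 4 at later days were these. At day 7, its 15 members were high in GQ replicate 1, at 1.36 log2 units with 15 of 15 above the cultivar mean, and low in GQ replicate 3, at -1.63 with 0 of 15. OP replicate 1 lay at -1.06, with 1 of 15 above. GQ replicate 3 and OP replicate 1 are among the libraries with many reads outside gene models. IS held no such library. There, replicate 3 lay at -0.54 with 0 of 15 above, and replicate 1 lay at 0.37 with 13 of 15. The GGI libraries lay between -0.09 and 0.08.

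At day 14, group 4 was high in OP replicate 1, at 0.45 with 15 of 15 above, and low in OP replicate 3, at -0.50 with 0 of 15. It was also above the cultivar mean for 15 of 15 members in GQ replicate 3, at 0.27, and in GGI replicate 1, at 0.26. The summed level of its members was 1280, 896 and 648 CPM in OP replicates 1 to 3 at day 14. At day 0 the sums were 1760, 656 and 785 CPM in OP, 748, 2110 and 1350 CPM in IS, 642, 663 and 419 CPM in GGI and 613, 778 and 624 CPM in GQ. The high and the low library of a cultivar thus differed by more than 2 times in OP and IS, and by less in GGI and GQ.

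Group 3 had other carriers. At day 7, it was high in GGI replicate 1, at 1.54 with 18 of 18 members above, and in OP replicate 3, at 0.85 with 16 of 18, and low in GGI replicate 2, at -0.84 with 0 of 18. At day 14, it was high in GGI replicate 3, at 1.08 with 17 of 18, and low in GGI replicate 2, at -1.01 with 1 of 18, and in GQ replicate 3, at -0.73 with 3 of 18. The summed level of the 18 members was 465, 192 and 914 CPM in the libraries labelled GGI replicates 1 to 3 at day 14, and 305, 667 and 351 CPM in GGI at day 0.

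**Figure D4:**
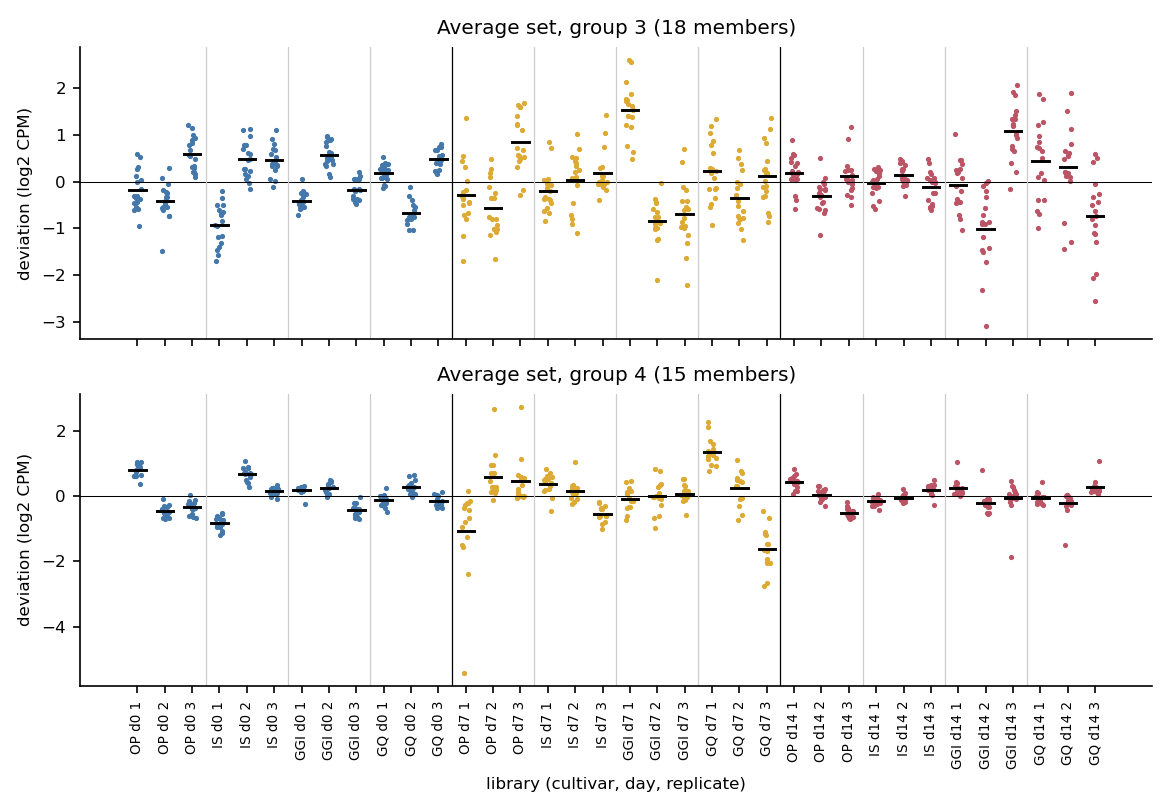
Each point is a member's deviation from its cultivar mean of that day in log2 CPM, for the 36 libraries ordered by day, cultivar and replicate, and black lines are group means. The 15 members of group 4 lie close together at day 0 and scatter more at day 7, where their SD in OP replicate 1 is 1.38. In GQ replicates 1 and 3 at day 7, 15 and 0 of 15 lie above the cultivar mean, with means of 1.36 and -1.63. These groups were picked for the plot after their values were seen.

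The every-cultivar set held members with the same library pattern as group 4. Its group 2, with 35 members, had a mean pattern over the 12 day 0 libraries whose correlation with that of group 4 was 0.977. It was 0.976 over the 12 day 7 libraries and 0.853 over the 12 day 14 libraries. The pattern was shallower in the every-cultivar set, with a mean deviation at day 0 of 0.32 in OP replicate 1 (35 of 35 above), 0.25 in IS replicate 2 (34 of 35) and -0.31 in IS replicate 1 (0 of 35). At day 7 its deviations were 0.78 in GQ replicate 1 (32 of 35 above) and -0.82 in GQ replicate 3 (3 of 35). Group 3 of the every-cultivar set had a correlation of group means with group 4 of the average set of 0.0728 at day 0. It rose to 0.845 at day 7 and 0.715 at day 14. A likeness to group 4 at later days was thus not limited to groups that were alike at day 0.

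The co-movement in group 2 of the every-cultivar set was partly kept. The mean correlation between its members was 0.674 at day 0, 0.522 at day 7 and 0.292 at day 14, and 0.492 and 0.420 at the later days without the 6 libraries. A further 12 members of that set, its group 4, had the opposite pattern, with a correlation of group means with group 4 of the average set of -0.955 at day 0, -0.948 at day 7 and -0.742 at day 14. Single members of that group moved together little at later days, with a mean correlation of 0.660 at day 0, 0.0614 at day 7 and 0.105 at day 14, and 0.298 and 0.169 at the later days without the 6 libraries. The sets have no member in common in these groups, and all values come from the same libraries, so the likeness is that of the libraries as well as of the members.

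The other groups of the every-cultivar set had lower mean correlations at the later days. Group 1, with 40 members, was high in IS replicate 1, at 0.40 with 40 of 40 members above, and in OP replicate 3, at 0.25 with 39 of 40, and low in IS replicate 2, at -0.36 with 2 of 40. Its mean correlation was 0.660 at day 0, 0.105 at day 7 and 0.0426 at day 14, and 0.219 and 0.0393 at the later days without the 6 libraries. Group 3, with 29 members, was low in OP replicate 2, at -0.36, and in GGI replicate 3, at -0.33, each with 0 of 29 above. Its mean correlation was 0.694 at day 0, 0.311 at day 7 and 0.0134 at day 14, and 0.370 and 0.0430 at the later days without the 6.

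The members with the widest day 0 spread in groups 1 and 2 of each set are given by their values. V2_11g014040.1.01, ranked 1 in the average set and in its group 1, had 37.5, 11.8 and 434 CPM in OP replicates 1 to 3 at day 0. It had 334, 35.2 and 30.5 CPM in IS, 197, 33.8 and 54.8 CPM in GGI and 13.3, 21.1 and 20.3 CPM in GQ. One library stood far above the rest in OP, IS and GGI, and none did in GQ, whose mean was 18.2 ± 4.26 CPM (SD, n = 3) against 161 ± 237 CPM (SD, n = 3) in OP.

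V2_11g014040.1.01 also differed widely between libraries at later days. At day 7, it had 397, 938 and 22.8 CPM in OP, 16.5, 30.5 and 26.7 CPM in IS, 13.4, 68.6 and 143 CPM in GGI and 452, 141 and 16.8 CPM in GQ. At day 14, it had 29.4, 21.8 and 83.7 CPM in OP, 173, 15.2 and 11.2 CPM in IS, 358, 12.4 and 109 CPM in the libraries labelled GGI and 13.0, 752 and 162 CPM in those labelled GQ. The highest library at day 14 had the same number as at day 0 in OP (replicate 3), in IS (replicate 1) and in the libraries labelled GGI (replicate 1), while at day 7 other replicates led in these cultivars. At day 0, every GQ library lay below every IS and GGI library, while OP overlapped with all, and edgeR's quasi-likelihood test gave an adjusted p of 0.472 at day 0, 0.0914 at day 7 and 0.49 at day 14 for a difference between them.

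V2_03g006500.1.01, also of group 1, had 240, 17.7 and 138 CPM in OP at day 0, 50.3, 3.00 and 13.2 CPM in IS, 11.3, 15.8 and 6.49 CPM in GGI and 32.8, 21.5 and 90.2 CPM in GQ. The lowest library was replicate 2 in OP, IS and GQ, and replicate 3 in GGI. Cultivars differed at day 0 with an adjusted p of 0.0369 in edgeR's test, where OP averaged 132 ± 111 CPM (SD, n = 3) and GGI 11.2 ± 4.66 CPM (SD, n = 3). At days 7 and 14 the adjusted p was 0.0793 and 0.555.

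V2_01g010160.1.01, of group 2, had 7.42, 18.6 and 3.05 CPM in OP at day 0, 7.92, 30.6 and 20.0 CPM in IS, 13.5, 7.41 and 20.2 CPM in GGI and 3.47, 8.39 and 2.27 CPM in GQ. V2_06g007640.1.01, of the same group, had 22.3, 31.6 and 5.90 CPM in OP, 15.3, 45.9 and 38.5 CPM in IS, 37.0, 23.3 and 46.9 CPM in GGI and 13.5, 24.1 and 5.14 CPM in GQ. The lowest library was the same for both in every cultivar: replicate 3 in OP and GQ, replicate 1 in IS and replicate 2 in GGI.

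Both had their highest cultivar mean in GQ at day 7. At day 7, V2_06g007640.1.01 had 0.276, 12.2 and 5.20 CPM in OP against 19.1, 220 and 154 CPM in GQ, and V2_01g010160.1.01 had 1.61, 2.45 and 0.98 CPM in IS against 2.60, 69.8 and 21.8 CPM in GQ. The difference between cultivars passed edgeR's test at day 7 with an adjusted p of 0.00146 for V2_06g007640.1.01 and 0.00545 for V2_01g010160.1.01. At day 14 the adjusted p was 0.017 and 0.955. The extreme day 7 values came from the 4 libraries with many reads outside gene models. In these, OP replicate 1, GGI replicate 2, GQ replicate 2 and GQ replicate 3, V2_06g007640.1.01 had 0.276, 50.9, 220 and 154 CPM and V2_01g010160.1.01 had 52.1, 13.2, 69.8 and 21.8 CPM. In the other 8 day 7 libraries, V2_06g007640.1.01 ran from 5.20 to 22.9 CPM and V2_01g010160.1.01 from 0.98 to 6.00 CPM, and the sole GQ library among them had 19.1 and 2.60 CPM. Whether these day 7 calls hold without the 4 libraries was not tested for single members.

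**Figure D5:**
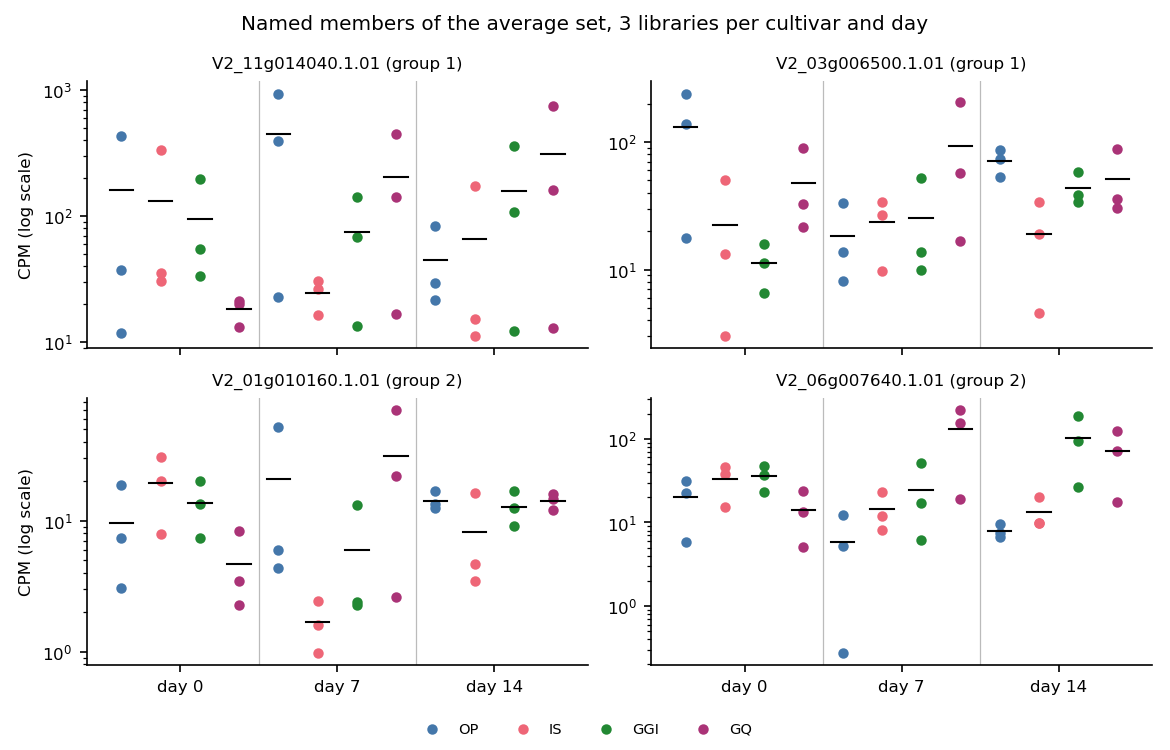
The CPM of 4 members of the average set is plotted on a log scale for each cultivar and day, with 3 libraries as points and their mean as a line. For V2_11g014040.1.01 a single library stands far above the rest of its cultivar at day 0 in OP (434 CPM), IS (334 CPM) and GGI (197 CPM), and libraries also differ widely at later days.

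The corresponding members of the every-cultivar set varied less. V2_05g017360.1.01, of its group 1, had 41.4, 49.6 and 59.7 CPM in OP at day 0, 71.7, 22.7 and 41.8 CPM in IS, 76.7, 64.9 and 44.8 CPM in GGI and 55.5, 61.0 and 42.1 CPM in GQ. V2_01g010580.1.01, of the same group, had 311, 239 and 304 CPM in OP, 528, 175 and 299 CPM in IS, 452, 452 and 353 CPM in GGI and 282, 256 and 392 CPM in GQ. Both were highest in replicate 1 and lowest in replicate 2 of IS, where the ratio was about 3, and they went different ways in GQ.

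V2_13g016040.1.01, of group 2, had 53.0, 54.3 and 37.1 CPM in OP at day 0, 56.8, 82.6 and 82.1 CPM in IS, 63.7, 58.6 and 39.7 CPM in GGI and 29.9, 40.1 and 19.0 CPM in GQ. V2_03g008730.1.01, of the same group, had 27.0, 16.0 and 17.0 CPM in OP, 20.8, 35.7 and 31.6 CPM in IS, 16.1, 16.2 and 12.4 CPM in GGI and 13.0, 18.1 and 12.8 CPM in GQ. In IS, GGI and GQ both had the same lowest library, replicate 1 in IS and replicate 3 in GGI and GQ. In OP their lowest libraries differed. At day 7, V2_03g008730.1.01 had 21.4, 9.08 and 5.27 CPM in GQ, in the order of its group's deviations. For these 4 members the adjusted p for a difference between cultivars in edgeR's test lay between 0.089 and 1 at the 3 days.

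Differences between the cultivar means were tested for every gene model with edgeR's quasi-likelihood test and Benjamini-Hochberg adjustment over all 21900 tested. At day 0, 41 of 150 members of the average set passed an adjusted p of 0.05, against 14.3% of all gene models tested and 12.1% of those at this level. That is 27.3% of the members. From the every-cultivar set 14 members passed, or 9.33%. The share was above the background in the average set and below it in the every-cultivar set, and no test of the lists against other gene models was made. The day 0 spread that ranked the members enters the error of this test at every day. The rule therefore bears on these shares, and nothing is read from them.

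Within the average set, group 1 held 15 of the 41, from 39 members, and group 2 held 5, from 34. Groups 3, 4 and 5 held 3, 2 and 2. At day 7, 75 members of the average set (50%) passed, against 49.8% of all gene models tested and 54.5% at this level, so that the share was near the background. Group 2 held 22 of these 75. At day 14, 22 members (14.7%) passed, against 9.85% and 8.12%.

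The every-cultivar set had 46 members passing at day 7 and 5 at day 14, both below the background. Its rule limits how far any cultivar may move from day 0, which also limits how far cultivars may part at later days. Without the 4 day 7 libraries with many reads outside gene models, 26 of the same 150 members of either set passed at day 7, against 22.1% of all gene models tested. At day 0 the counts without these 4 libraries were 44 in the every-cultivar set and 70 in the average set, against 37.5%.

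The mean over cultivars was limited by the rule, so its tests are a description. At day 7 against day 0, 14 members of each set passed, against 37.6% of all gene models tested and 43.4% of those at this level. At day 14 against day 0, 25 members of the every-cultivar set and 21 of the average set passed, against 59.6% and 61.2%. Without the 4 day 7 libraries, 44 members of the every-cultivar set and 32 of the average set passed at day 7, against 38.2% of all gene models tested, and 47 and 37 at day 14, against 69.9%. For the 8 named members, the adjusted p in edgeR's test was between 0.051 and 1 in both comparisons.

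A mean near its starting value did not mean that each cultivar stayed there in the average set. For 139 of 150 members the change exceeded 0.7 log2 units in some cultivar at day 7, and for 137 at day 14. Of the 5593 gene models that passed the limit on the average, 956 stayed under 0.7 in every cultivar at both days. Among the 150 members 1 did, so going over the limit in some cultivar was common beyond the members too. The lowest change was -8.51 in OP at day 7 and the highest was 5.42 in GGI at day 7. GQ had the most members over the limit at day 7, with 86, and GGI, IS and OP had 79, 70 and 63. At day 14 IS had the most, with 84, and GGI, GQ and OP had 69, 63 and 52. In the every-cultivar set no member did so, by its rule.

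Neighbours in the numbering of the IDs were counted among the members. No other list of 150 gene models was counted, so the small number of such pairs is not read as a trait of the members. All 150 members of the every-cultivar set carried an ID of one of 17 numbered blocks, and none of them had a number next to that of another member. Of all 12308 gene models at this level, 12282 carried an ID of these blocks. Of the average set, all members but 1 lay in 16 blocks, and 2 pairs had neighbouring numbers. V2_08g002900.1.01 and V2_08g002910.1.01 had a correlation of 0.733 over the 12 day 0 deviations, and V2_13g002620.1.01 and V2_13g002630.1.01 had one of -0.705. These 4 were named after their values were seen.

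V2_14g007960.1.01, the gene model in both sets, was also named after its values were seen. Its mean within-cultivar SD was 0.76 log2 units at day 0, with 1.25 for OP, 0.91 for IS, 0.53 for GQ and 0.36 for GGI. At day 7 the mean SD was 0.36 and at day 14 it was 0.47. The adjusted p for a difference between cultivars in edgeR's test was 0.923 at day 0, 0.708 at day 7 and 0.737 at day 14.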

How the data were processed

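RNA-seq of artichoke hearts was deposited as 1 table of read counts per gene model for each of 36 libraries. The tools named are cutadapt and STAR, per the submitters' processing notes. What counted the reads, on which build and annotation and with which strand setting, is not given in the sources used here. The deposited counts are raw. The 5 summary rows, which held from 13.9% to 85.2% of a library's reads, were left out of library sizes.

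Log2 CPM came from edgeR 4.0.16 in R 4.3.3 (limma 3.58.1), with TMM scaling, a prior count of 2, and gene models with at least 10 reads in at least 3 libraries. The quasi-likelihood test was fitted to all 36 libraries by group after edgeR's filter on low counts, and to the 12 libraries of a day for replicate number. It was tested on simulated data. The coefficient of variation between replicates was 0.506. DESeq2 1.42.0, RLE scaling, other filters, other tree heights, a replicate block and each library left out were alternatives.

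Members and lists were chosen with earlier results of these data known. The named members were, in each set, the 2 with the largest mean day 0 SD in each of the 2 largest groups. Adjusted p-values are Benjamini-Hochberg over all gene models tested. Libraries with the same replicate number were no more alike on average. The mean correlation of deviations was -0.0014 over 198 pairs with the same number and 0.0012 over 396 others. Single pairs with the same number ran from -0.531 to 0.632, and a pairing within only part of the groups was not tested. No 2 replicates were one library deposited again, since chi-square per degree of freedom was at least 53.1 in all 36 pairs. None of the 28632 IDs matched the 30275 genes of the RefSeq table (CcrdV1.1), so no names, positions or sequences are printed.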

Additional observations from a re-analysis of the deposited data

How the results depend on the processing

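Of 143 other settings over 24 results, 121 kept the value within 1.5 times or 1 SD, as did 645 of 672 values with 1 library left out. The limit of 1 SD was for the spreads, and that SD was taken over the median member SDs of the 4 cultivars. Counts that were 0 and stayed 0, as for replicate number, are included as kept. In the every-cultivar set, DESeq2 gave 23 members called between cultivars at day 0 and 13 at day 14. Without the 2 day 14 libraries that went against their labels, 8 were called at day 14. Without the 4 day 7 libraries with many reads outside gene models, 44, 26 and 26 were called between cultivars at days 0, 7 and 14, 44 for day 7 against day 0 and 47 for day 14 against day 0. Members chosen again without these libraries shared 41 with the main choice and had a median day 7 spread of 0.195. Read as the average over cultivars, the rule shared 1 member, with 41, 75 and 22 called between cultivars, and a spread of 0.794 at day 7 and 0.56 at day 14. In the average set, leaving out the 4 day 7 libraries gave 70 called between cultivars at day 0, 26 at day 7, 32 for day 7 against day 0, 37 for day 14 against day 0 and, for members chosen again, a day 7 spread of 0.47. DESeq2 called 1 member for replicate number at day 7. The cause of these shifts was not tested. Applying these tests to the average set was chosen after seeing the data.

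With 1 library left out (every-cultivar set, then average set), calls between cultivars were 7 to 22 and 28 to 49 at day 0, 32 to 80 and 53 to 90 at day 7, and 3 to 10 and 12 to 32 at day 14. Calls for day 7 against day 0 were 10 to 22 and 8 to 18, and for day 14 against day 0 20 to 35 and 15 to 26. Shared members were 90 to 144 and 102 to 145, members in groups of 10 or more 107 to 127 and 113 to 130, and calls for replicate number 0 to 0 in both. Spread was 0.338 to 0.429 and 0.717 to 0.86 at day 7, and 0.187 to 0.215 and 0.482 to 0.578 at day 14. Counts moved by over 1.5 times as follows. In the every-cultivar set at day 0, 7 and 8 came without IS replicates 2 and 3, 9 without GGI replicate 3, GQ replicate 1 or GQ replicate 3, and 22 without GQ replicate 3 of day 7. At day 7, 80 came without GQ replicate 1. At day 14, 3 came without any one IS library, and 10 without OP replicate 1 or GQ replicate 3 of day 7. Without GQ replicate 3 of day 7, 22 were called for day 7 against day 0 and 96 members were shared, and 90 were shared without IS replicate 1 of day 0. In the average set at day 14, 12 to 14 came without any one IS library or without OP replicate 1 or 2. Its 14 calls for day 7 against day 0 became 8 or 9 without any of 7 libraries, 6 of them of day 0.

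With replicate number as a block, calls between cultivars were 14 and 39 at day 0, 43 and 70 at day 7 and 6 and 17 at day 14, and calls between days were 15 and 14, then 26 and 21. The block moved no count by more than 1.5 times. With 3 libraries a group, one library can make most of an SD.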
